A study of Arabidopsis thaliana with 51 samples.

Results

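The cytosines described here are the CHG and CHH sites (H stands for A, C or T) at the outer ends of a region of Arabidopsis thaliana that holds the floral homeotic gene AGAMOUS (AG). They were chosen by context and position: all rows of the deposited table in the CHG or CHH context between 10374202 and 10377001 (the upstream flank, 2800 bp) or between 10388702 and 10391499 (the downstream flank, 2798 bp). This gave 1812 of the 5709 rows, made up of 314 CHG and 1498 CHH sites, with 858 in the upstream and 954 in the downstream flank. The segment was marked out because its low methylation was known from these data, so the low level itself is a description and carries no test. The upstream flank ends 3601 bp before the domain targeted by AGp and the downstream flank begins 1601 bp after the domain targeted by AGe, both as marked out from methylation in the Col AGp//AGe sMf library. Of the 1812 sites, 7 shared a coordinate with another row and 214, all downstream, could not be placed in every library, which left 1591 sites (857 upstream and 734 downstream). Coordinates are those of the deposited table, whose build the submitters' processing notes name as TAIR10, and in the gene table AG is AT4G18960 on chromosome 4, beside AT4G18950 on one side and AT4G18970 on the other. No genome of that build was used, so no exon or intron is assigned to a site and no sequence is shown.

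The study profiled cytosine methylation by bisulfite sequencing in 51 libraries of young flowers from plants that had been transformed with silencing constructs or that served as their wild-type controls. Each library pooled flowers of 5 to 10 lines picked for the same flower phenotype, so a level is a mean over lines and the phenotype helped to choose them. The deposited table covers sets A, B and C of 28, 13 and 10 libraries. The phenotype codes sMf, rMf, Sterile and Wt are used as the labels give them, without expansion.

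In set A the construct AGe was present in the backgrounds Col (2 libraries, rMf), M317 (2 sMf and 3 rMf) and M318 (3 sMf and 3 rMf), the construct AGp in Col (2 libraries, Sterile), and the libraries without a construct were M317 Wt (3), M318 Wt (3) and Col Wt (2). Single libraries of Col carried AGp//AGe (one sMf and one rMf), UF2//AGe, UF4//AGe and ARE//AGe (Wt). The labels of UF2//AGe and UF4//AGe disagree on the phenotype, which is therefore not given. Set B held the alleles Met1-1 and ddm1-1, each in 4 single libraries (ARE//AGe sMf, ARE//AGe rMf, Ctr//AGe rMf and Wt), with Col Ctr//AGe rMf, Col Ctr//AGe Wt, Col AGe rMf and 2 Col Wt libraries. Set C held hdp1-1 and hdp2-1 (ARE//AGe sMf, ARE//AGe rMf and Wt each), suvh1-2 (ARE//AGe sMf and Wt), Col ARE//AGe Wt and 1 Col Wt library. What M317 and M318 carry is not stated in the labels, and plant age is given only for the time before transformation.

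In plants, cytosines are methylated in 3 sequence contexts that depend on different enzymes. CpG methylation is copied at replication by MET1, CHG methylation is kept by CMT3 together with histone H3 lysine 9 methylation, and CHH methylation has to be set anew by CMT2 or, in RNA-directed DNA methylation, by DRM2 guided by small interfering RNAs. RNA-directed methylation marks the sequence that matches the small RNAs in all contexts, which makes the CHG and CHH level away from a target a measure of spread and of background. DDM1 is a chromatin remodeller needed for methylation of heterochromatin, SUVH1 binds methylated DNA and favours expression of nearby genes, and HDP1 and HDP2 belong to an anti-silencing complex that acts with DNA demethylation. In gene bodies, methylation in Arabidopsis is commonly confined to CpG.

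The table gives whole percentages without read counts, so the depth behind each value is unknown and no detection limit can be given. A minus sign marks the strand and was removed. In set A, which has no code for missing values, a value of 0 may be an unmethylated or an uncovered cytosine. The 51 columns fall into 5 column blocks (runs of neighbouring columns with 11, 17, 11, 4 and 8 libraries) in which rows are displaced together. In each replicated group of set A, replicate A, or replicate 1, lies in column block 1 and the other replicates in column block 2; of the single libraries, the AGp//AGe pair lies in column block 1 and UF2//AGe, UF4//AGe and ARE//AGe Wt in column block 2. As deposited, 66.0%, 60.3%, 54.8% and 63.9% of compared rows in column blocks 2 to 5 carried the sign of their strand, and after realignment 100%, 99.95%, 100% and 99.96% did. The displacements were fitted to these same signs, so the agreement after realignment follows from the fit and is no check of it. No displacement changed within the upstream flank, so the corrections concern the downstream flank.

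Across the 1591 sites CHG and CHH methylation was near 0 in every library. The mean level was 0.471% ± 0.157 (SD, n = 51 libraries), with a median of 0.495%, a lowest value of 0.131% in M318 AGe sMf replicate A and a highest of 0.721% in ddm1-1 Ctr//AGe rMf. Of 79513 values, 5048 (6.35%) were above 0. CHG sites averaged 0.498% ± 0.207 and CHH sites 0.465% ± 0.157 (SD, n = 51 each), and CHG was the higher of the 2 in 29 of 51 libraries. The downstream flank averaged 0.505% ± 0.195 and the upstream flank 0.443% ± 0.174 (SD, n = 51 each), with downstream the higher in 34 of 51 libraries. At the edges facing the targets, the innermost 100-bp windows of the flanks averaged 0.406% (upstream) and 0.484% (downstream). The adjoining windows just outside the flanks, nearer to the targets, averaged 0.592% and 0.520%.

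The floor was lowest in column block 1 and highest in column block 3. It was 0.256% ± 0.111 (SD, n = 11) in column block 1, 0.459% ± 0.101 (n = 17) in column block 2, 0.617% ± 0.0699 (n = 11) in column block 3, 0.560% ± 0.0225 (n = 4) in column block 4 and 0.547% ± 0.105 (n = 8) in column block 5. Of the 10 libraries with the lowest levels, 9 lay in column block 1. The sites above 0 also changed in kind: their share was 2.69%, 5.37%, 6.20%, 9.27% and 12.2% in column blocks 1 to 5, while the median of the values above 0 was 7.59%, 7.88%, 9%, 6% and 3.81%. Libraries of column block 5, all of them hdp1-1, hdp2-1 or suvh1-2, thus held more sites above 0 at smaller values. Set A averaged 0.379%, set B 0.608% and set C 0.550%. Column blocks 1 and 2 are set A, where an uncovered cytosine may count as 0, while coded missing values were left out elsewhere. Levels of set A are therefore not on the same footing as those of sets B and C. Inside the column blocks, libraries with a construct and those without one averaged 0.250% and 0.271% in column block 1, 0.430% and 0.528% in 2, 0.615% and 0.621% in 3, 0.541% and 0.579% in 4, and 0.556% and 0.531% in 5. Set, column block and allele overlap in this design, and the part of each in the floor was not tested.

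**Figure D1:**
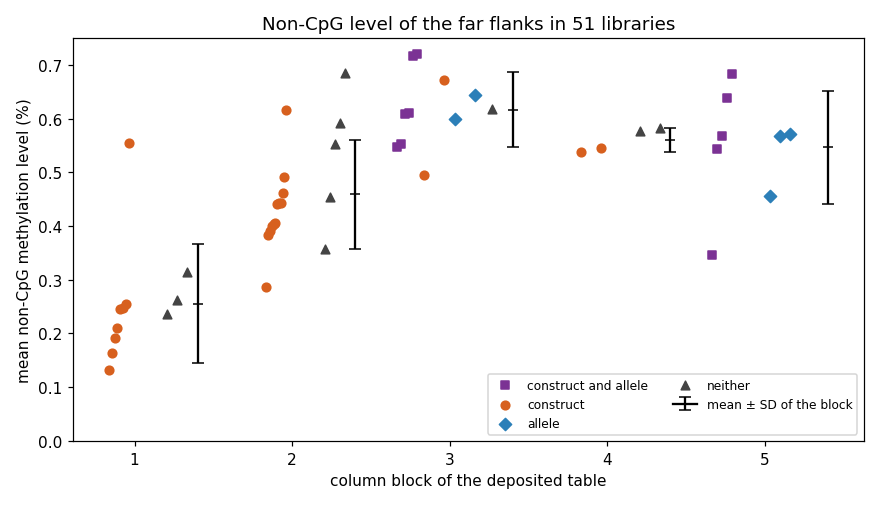
Mean level (percent) of the 1591 CHG and CHH sites in each of 51 libraries, by column block, with symbols for libraries with construct and allele, construct alone, allele alone or neither, and bars for the mean ± SD of the block. Column block 1 lies lowest at 0.256% ± 0.111, with M317 AGe sMf replicate A at 0.554% as its one high library.

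The libraries with an allele lay near the floor of Col Wt. The 4 Met1-1 libraries had 0.552% (ARE//AGe sMf), 0.716% (ARE//AGe rMf), 0.608% (Ctr//AGe rMf) and 0.645% (Wt), and the 4 ddm1-1 libraries 0.546% (ARE//AGe sMf), 0.611% (ARE//AGe rMf), 0.721% (Ctr//AGe rMf) and 0.600% (Wt). The 2 Col Wt libraries of set B had 0.583% and 0.618%, inside both ranges. Met1-1 averaged 0.630% ± 0.0685 and ddm1-1 0.619% ± 0.0733 (SD, n = 4 each, over different constructs and phenotypes). In set C, hdp1-1 libraries had 0.568% (sMf), 0.544% (rMf) and 0.567% (Wt), and hdp2-1 libraries 0.684% (sMf), 0.639% (rMf) and 0.571% (Wt), against 0.576% in the Col Wt library of that set. The suvh1-2 libraries were the lowest of set C, at 0.346% (sMf) and 0.456% (Wt). Each of these groups is a single library, so the differences have no replicate check. In set C the libraries with an allele make up all of column block 5, and the Col libraries lie in column block 4. Allele and column block cannot be told apart there. The constructs in Col stayed on the floor too, with 0.248% (AGp//AGe sMf), 0.246% (AGp//AGe rMf), 0.383% (UF2//AGe), 0.287% (UF4//AGe) and 0.491% (ARE//AGe Wt) in set A, 0.537% (AGe rMf), 0.673% (Ctr//AGe rMf) and 0.495% (Ctr//AGe Wt) in set B, and 0.545% (ARE//AGe Wt) in set C.

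CpG sites of the same flanks set a scale for these values. In the downstream flank CpG methylation averaged 14.1% ± 5.78 (SD, n = 51), and it was higher than the CHG and CHH level in 49 of 51 libraries. It was 0.589% ± 0.191 in Met1-1 (n = 4), 5.05% ± 2.23 in ddm1-1 (n = 4) and 18.1% ± 3.05 in Col Wt (SD, n = 5). The CHG and CHH level of the same flank was 0.589% ± 0.129 in Met1-1, 0.569% ± 0.0568 in ddm1-1 and 0.542% ± 0.147 in Col Wt. Over the whole flank, the low CpG level in Met1-1 thus did not come with a lower CHG and CHH level. That level is on the floor, where a fall could hardly show, and the Col Wt mean includes libraries of set A. Between 10390302 and 10390501 it was 0.371% ± 0.0705 in Met1-1, 0.750% ± 0.448 in ddm1-1 and 0.876% ± 0.357 in Col Wt, which was not tested. In the upstream flank CpG averaged 0.452% ± 0.361 (SD, n = 51) and exceeded the CHG and CHH level in 16 of 51 libraries.

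Single sites above the floor were scattered and rarely shared. Of the 1591 sites, 135 were above 0 in no library, 1456 in at least 1, 23 in at least 10 and none in more than 15 of 51. The mean of a site over the libraries had a median of 0.392%, a 95th percentile of 1.14% and a highest value of 2.53%. The site seen most often was CHH 10376127, above 0 in 15 libraries at 2% to 12%. It was followed by CHH 10375290 in 14 libraries (2% to 8%) and by CHH 10388811 and CHG 10390383 in 13 libraries each (2% to 13% and 3% to 15%). These 4 sites were above 0 in at least 3 column blocks each.

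The 8 CHG sites with the highest means lay between 1.31% and 1.88%. They were CHG 10390383 (1.88%), CHG 10375295 (1.78%, above 0 in 6 libraries), CHG 10389349 (1.65%, 7 libraries), CHG 10390366 (1.59%, 9 libraries), CHG 10389715 (1.57%, 10 libraries), CHG 10389785 (1.35%, 7 libraries), CHG 10389787 (1.33%, 10 libraries) and CHG 10390573 (1.31%, 8 libraries). All but CHG 10375295 are in the downstream flank, and none exceeded 25% in any library. The 8 CHH sites with the highest means were CHH 10375811 (2.53%), CHH 10374788 (2.16%), CHH 10375930 (2.09%), CHH 10389197 (1.94%), CHH 10391409 (1.88%), CHH 10375867 (1.79%), CHH 10376127 (1.78%) and CHH 10376363 (1.78%). Single values made some of these means: CHH 10375811 averaged 0.214% without its highest library, and CHH 10375867 was above 0 in 1 library only.

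Of all values, 192 reached 20%, at 177 sites in 45 libraries, with 106 upstream and 86 downstream and 166 in CHH and 26 in CHG sites. No site reached 20% in more than 3 libraries, and M318 Wt replicate B held the most such values, 16. By column block they numbered 37, 74, 71, 5 and 5. Of the 192, 100 reached 25% and 3 reached 50%: CHH 10374939 at 50% and CHH 10375867 at 75%, both in Col AGp//AGe rMf, and CHH 10375811 at 100% in M318 AGe sMf replicate A. With the rows as deposited, 1150 values reached 20% and 564 reached 50%.

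Among the 5 Wt libraries that carry an allele and no construct, the highest site means belonged to CHG 10389349 (7.6%), CHH 10391040 (6.25%), CHH 10388900 (6%), CHH 10375874 (5.75%) and CHH 10375943 (5.67%). CHG 10389349 was above 0 in 7 of 51 libraries, 5 of them in column block 3, which holds both Met1-1 and ddm1-1, and the median of its values above 0 was 12%. Missing values were left out, so some of these means are over fewer than 5 libraries and a single value weighs more in them. CHH 10391040 was above 0 in the Met1-1 Wt library alone, at 25%. CHH 10388900 reached 18% in the same library and was above 0 in 1 other. With 1 library per genotype these values have no replicate check.

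Along the flanks, windows of 100 bp gave the same picture of a flat floor. Upstream windows lay between 0.314% and 0.559%, with the highest at 10374702 to 10374801 (0.559%), 10375102 to 10375201 (0.554%) and 10376502 to 10376601 (0.548%). Downstream windows lay between 0.360% and 0.717%, with the highest at 10390402 to 10390501 (0.717%), 10391402 to 10391499 (0.691%, 10 sites) and 10390302 to 10390401 (0.602%). CpG methylation was anything but flat downstream, with window means up to 47.5%. The 5 downstream windows in which CpG exceeded 20% had a CHG and CHH level of 0.581%, against 0.485% in the other windows. Across 24 downstream windows with both contexts, Pearson's r between the CpG and the CHG and CHH level was 0.483 after realignment and 0.939 with the rows as deposited. Windows share libraries and are not independent, so this r is a description. In the upstream flank r was -0.0963 over 21 windows. Between 10390302 and 10390501, M317 AGe sMf replicate A was at 7.50%, against a median of 0.470% over the libraries. The window means there include that library, and the downstream contrast and r are not given without it.

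**Figure D2:**
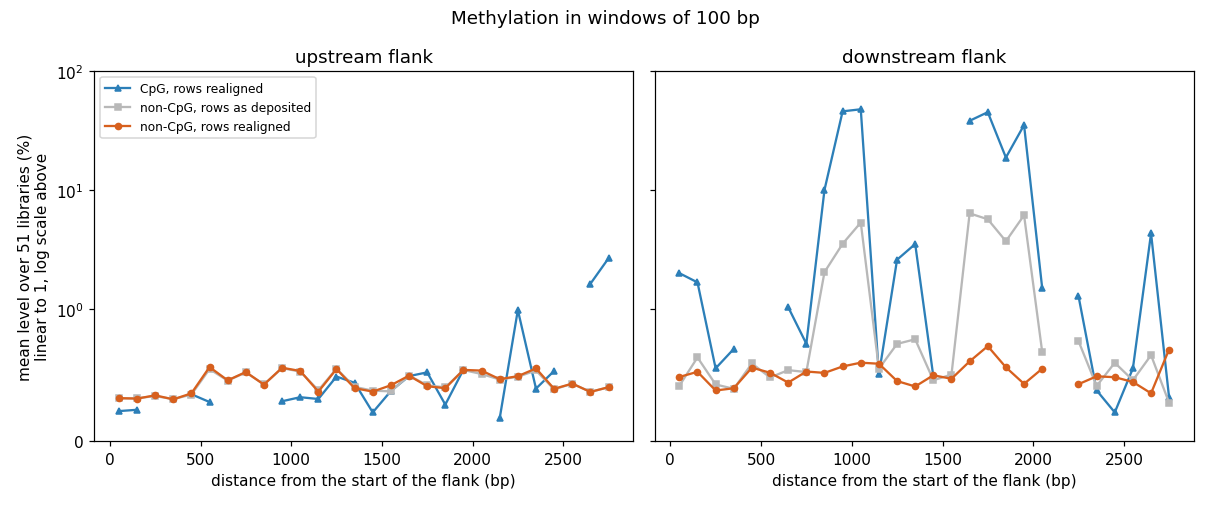
Mean level (percent, linear to 1 and on a log scale above) over 51 libraries in windows of 100 bp of the upstream flank (left) and downstream flank (right), for CpG sites and for CHG and CHH sites after realignment and with the rows as deposited. Downstream CpG peaks reach 47.5%, the CHG and CHH line stays between 0.360% and 0.717%, and the line for rows as deposited follows the CpG peaks.

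The stretch near 10390400, where CHG and CHH values appear high in the table as deposited, was on the floor in most libraries once rows were in register. Between 10390302 and 10390501 there are 66 CHG or CHH sites and 14 CpG sites. With the rows as deposited the CHG and CHH sites averaged 5.99% over the 51 libraries and up to 13.3% in one. After realignment they averaged 0.661% with a median of 0.470%, and 4 libraries had 0 at all 66 sites (Col AGp//AGe rMf, M318 AGe sMf replicate A, M318 AGe rMf replicate A and Col AGe rMf replicate B). CpG sites there were at 41.0% ± 19.0 realigned (SD, n = 51), against 15.8% as deposited. CpG was at 1.05% ± 0.397 in Met1-1 (n = 4), 10.6% ± 13.2 in ddm1-1 (n = 4) and 59.2% ± 8.37 in Col Wt (SD, n = 5), while CHG and CHH were at 0.371% ± 0.0705, 0.750% ± 0.448 and 0.876% ± 0.357 in the same groups. The recurrent sites CHG 10390383 and CHG 10390366 both lie in it. One library remained far above the rest, M317 AGe sMf replicate A with 7.50% and 34 of 66 sites above 0. The next was Col ARE//AGe Wt of set C with 1.44%.

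In that library the sites above 0 in this stretch lay almost all on the plus strand. Between 10390273 and 10390527 (255 bp, the stretch with the most sites above 0 when each counted 1 and each site at 0 counted -0.5, chosen after the values were seen) 41 of 45 plus-strand CHG and CHH sites were above 0, at 11% to 20% with a median of 14%, and 1 of 36 minus-strand sites, at 25%. The plus-strand mean was 13.0%, whereas the median of that mean in the other 50 libraries was 0.533% and the highest 1.73%. In M317 AGe sMf replicate B, 4 of the 45 plus-strand sites were above 0. CpG sites of the stretch were at 36.9% on the plus and 7.14% on the minus strand in M317 AGe sMf replicate A. The number of reads behind these values is unknown. In set A a 0 on the minus strand may be an uncovered cytosine, so the minus strand need not be unmethylated.

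**Figure D3:**
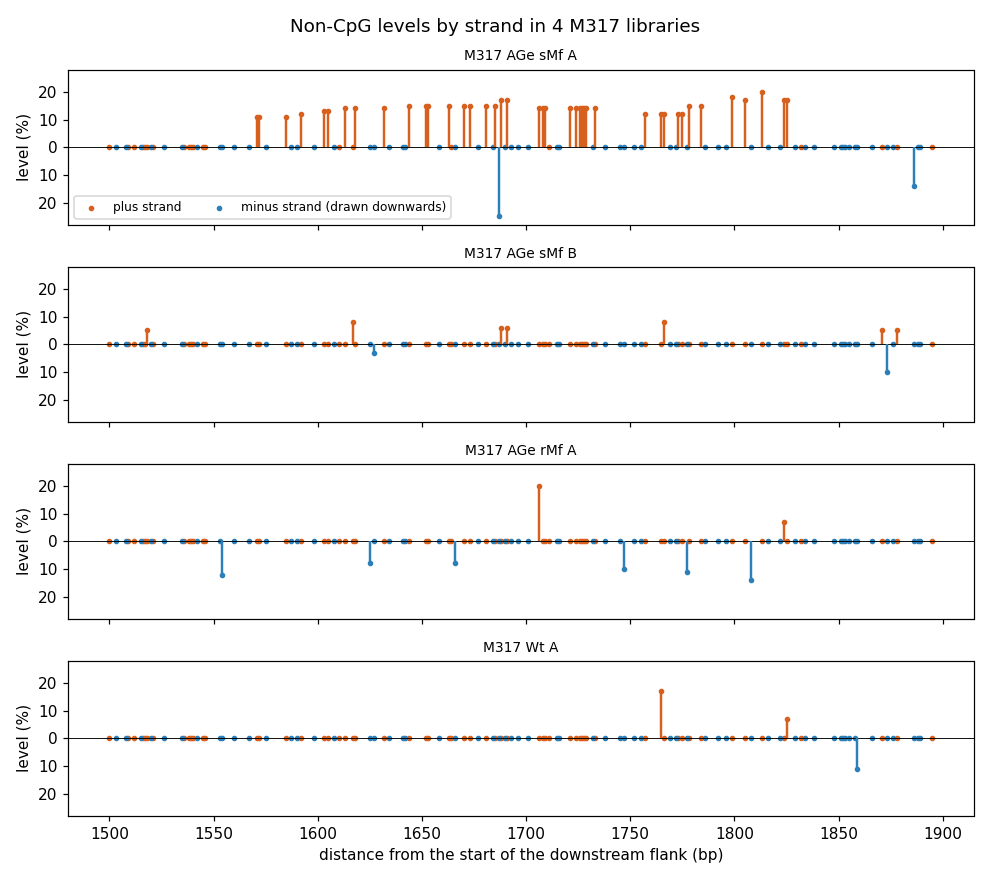
Level (percent) of each CHG and CHH site by distance from the start of the downstream flank (bp), plus strand upwards and minus strand downwards, in M317 AGe sMf replicates A and B, M317 AGe rMf replicate A and M317 Wt replicate A. In M317 AGe sMf replicate A, 41 of 45 plus-strand sites of the stretch lie at 11% to 20% and 1 of 36 minus-strand sites is above 0; the other 3 libraries show isolated sites.

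Similar stretches with values above 0 mainly on one strand occurred in libraries without a construct, again named after their values were seen. These libraries are also of set A, so zeros on the opposite strand may be uncovered cytosines. In M318 Wt replicate B, 16 of 22 plus-strand sites between 10389177 and 10389269 were above 0, at 11% to 40%, against 1 of 6 minus-strand sites. Its plus-strand mean of 14.1% compares with at most 3.73% in the other 50 libraries. In M318 Wt replicate A, 14 of 24 minus-strand sites between 10389717 and 10389968 were above 0, at 8% to 25%, against 2 of 45 plus-strand sites, and its minus-strand mean of 8.00% compares with at most 1.46% in the other 50 libraries. Over all libraries, runs of at least 5 neighbouring sites of one strand that were all above 0 numbered 16, in 9 libraries, with 9 downstream and 7 upstream and a longest run of 19 sites. Within their spans 8 of 97 sites on the opposite strand were above 0. The runs held 113 of the 5048 values above 0 (2.24%), so most of the floor lies outside them. In M317 AGe sMf replicate A they carried much of the level, which was 0.554% with the runs and 0.171% without them.

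The 10 comparisons between replicated groups of set A asked whether a construct, a phenotype or a background shifted the floor. None of them separated the groups: the libraries overlapped in all 10, and two-sided exact permutation tests over libraries gave p between 0.4 and 0.8 (0.8 each after Benjamini-Hochberg adjustment over 10). The smallest p possible was 0.1, or 0.333 with 2 libraries against 2, so no difference could have passed 0.05. The labels do not say that replicates came from separate lines, and the p-values measure the spread between libraries only. Column block differences of the size given above lie inside every group, so each difference is also given within column blocks 1 and 2.

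AGe in M317 gave the largest positive difference. M317 AGe sMf libraries had 0.554% and 0.461%, and M317 Wt libraries 0.236%, 0.358% and 0.552%, a difference of 0.126 percentage points (exact permutation p = 0.4). It was 0.319 points in column block 1 and 0.00566 points in column block 2, and 0.0788 points without M317 AGe sMf replicate A. Without the runs on one strand, which were picked by their values, it was -0.0661 points. By flank it was 0.312 points downstream and -0.0342 points upstream. M317 AGe rMf libraries had 0.209%, 0.442% and 0.616%, a difference of 0.0406 points from M317 Wt (exact permutation p = 0.8; -0.0264 and 0.0742 points within the column blocks). Against M317 AGe rMf, M317 AGe sMf differed by 0.0850 points (exact permutation p = 0.7), by 0.345 points in column block 1 and -0.0685 points in column block 2, and by -0.0805 points without the runs.

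AGe in M318 went with lower, overlapping values. M318 AGe sMf libraries had 0.131%, 0.444% and 0.390%, and M318 Wt libraries 0.314%, 0.686% and 0.454%, a difference of -0.163 points (exact permutation p = 0.4; -0.182 and -0.153 points within the column blocks). M318 AGe rMf libraries had 0.192%, 0.404% and 0.406%, a difference of -0.150 points from M318 Wt (exact permutation p = 0.4; -0.121 and -0.165 points). Downstream, M318 AGe sMf averaged 0.347%, M318 AGe rMf 0.305% and M318 Wt 0.679%, and upstream 0.300%, 0.359% and 0.318%. The stretches in M318 Wt replicates A and B lie in the downstream flank. Between the phenotypes, M318 AGe sMf differed from M318 AGe rMf by -0.0124 points (exact permutation p = 0.8; -0.0610 and 0.0119 points within the column blocks, so the sign differed between them).

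In Col and between the backgrounds, the values likewise overlapped. Col AGe rMf libraries had 0.255% and 0.401%, and Col Wt libraries 0.263% and 0.592%, a difference of -0.0996 points (exact permutation p = 0.667; -0.00817 and -0.191 points within the column blocks). Col AGp Sterile libraries had 0.163% and 0.441%, a difference of -0.125 points from Col Wt (exact permutation p = 0.667; -0.0993 and -0.151 points). M317 Wt differed from Col Wt by -0.0455 points (exact permutation p = 0.7; -0.0270 and -0.137 points). M318 Wt differed from Col Wt by 0.0572 points (exact permutation p = 0.8), by 0.0509 points in column block 1 and -0.0220 points in column block 2, so the sign differed between the blocks. In every group of these comparisons except M317 AGe sMf, the library of column block 1 was the lowest.

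**Figure D4:**
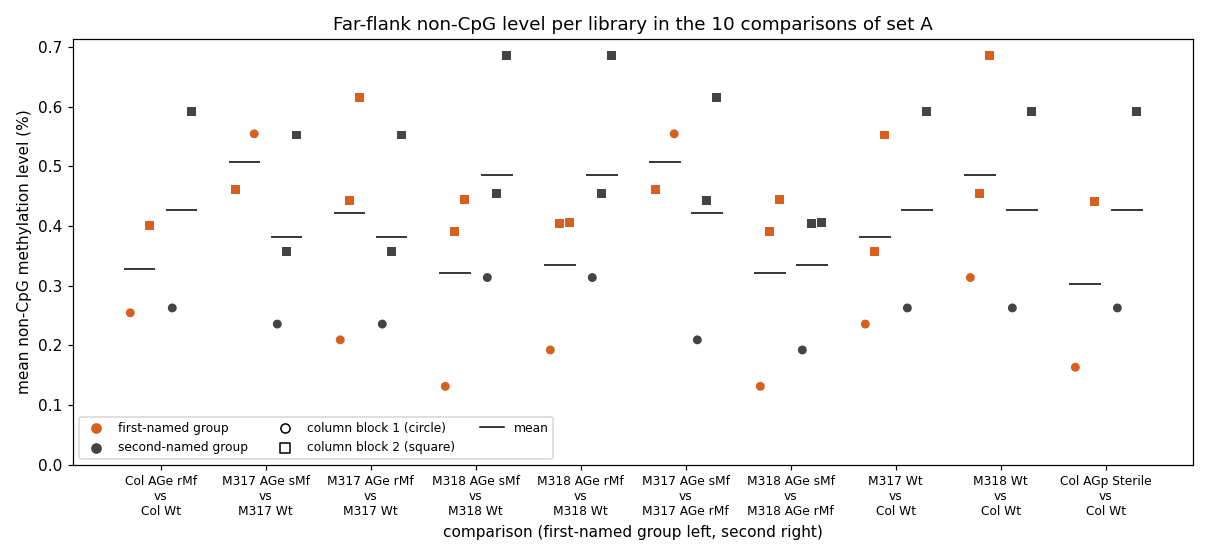
Mean level (percent) of the 1591 CHG and CHH sites per library in the 10 comparisons of set A, with the first-named group on the left, circles for column block 1, squares for column block 2 and lines for group means. The groups overlap in all 10 comparisons, and the circles lie lowest except in M317 AGe sMf, where replicate A is at 0.554%.

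Single sites were tested across the whole table with limma on log2 odds, with an offset of 0.01 and Benjamini-Hochberg adjustment over 2281 cytosines that were above 0 in at least 2 of 23 libraries. Of the sites in the flanks, 445 of 1591 passed that filter, and a site that passed through a single group had to differ there, so the counts below describe the calls and support nothing about the flanks as a whole. The median difference over all cytosines was 0 on this scale. In total 47 calls were made at 34 flank sites, and in 46 of them one of the groups was at 0 in all libraries, where the fitted difference depends on the offset and is no bound. Call by call, values were small, with group differences between 2.33 and 14.5 percentage points. In 9 calls, at 6 sites, the groups did not overlap. When the libraries of a comparison were left out in turn, 4 of the 47 calls were kept in every repeat and 18 were tested and lost in at least 1. The other 25 were kept wherever they were tested, but fell out of the filter in some repeats. In all, 34 of the 47 calls went untested in some repeat. These had passed the filter only through the group where they were high. A difference there was fixed in advance, so staying called is no sign of stability.

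For Col AGe rMf against Col Wt, 1 of 445 flank sites (0.225%) was called higher and 0 lower by limma at an adjusted p under 0.05, against 29.5% of all cytosines tested (28.9% higher and 0.57% lower). The count of flank sites depended on single libraries: 22 were called without Col AGe rMf replicate A, 21 without Col AGe rMf replicate B, 41 without Col Wt replicate A (40 of them lower) and 17 without Col Wt replicate C (all lower). For M317 AGe sMf against M317 Wt, 3 were called higher and 7 lower (2.25% together), against 28.7% over the table (28.2% and 0.482%). Here 34 flank sites were called without M317 AGe sMf replicate A, 30 without M317 AGe sMf replicate B, 5 without M317 Wt replicate B and 4 without M317 Wt replicate C. For M317 AGe rMf against M317 Wt, 10 were called higher and 9 lower (4.27%), against 25.1% (24.5% and 0.57%), with 8 flank calls without M317 AGe rMf replicate B and 9 without replicate C. For M318 AGe sMf against M318 Wt, 1 was called higher and 3 lower (0.899%), against 14.4% (14% and 0.395%), with 1 flank call without M318 AGe sMf replicate B, M318 AGe sMf replicate C or M318 Wt replicate A and 2 without M318 Wt replicate C. For M318 AGe rMf against M318 Wt, 4 were called higher and 5 lower (2.02%), against 27.1% (26.5% and 0.614%), with 5 flank calls without M318 AGe rMf replicate B and 4 without replicate C. For Col AGp Sterile against Col Wt, 1 was called higher and 0 lower (0.225%), against 22.1% (21.5% and 0.658%), with 12, 4, 38 and 17 flank calls without Col AGp Sterile replicates 1 and 2 and Col Wt replicates A and C in turn. In all 6 comparisons of a construct with its control the flank share of higher calls was below that of the table, whose higher calls include the targets. The flank share of lower calls was above that of the table in 4 of the 6, at 1.57% against 0.482% (M317 AGe sMf), 2.02% against 0.57% (M317 AGe rMf), 0.674% against 0.395% (M318 AGe sMf) and 1.12% against 0.614% (M318 AGe rMf), and 0 in both Col comparisons. Neither contrast was tested.

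Between phenotypes, 3 flank sites were called higher in M317 AGe sMf than in M317 AGe rMf (0.674%), against 0.219% of the table, which is 5 cytosines in all; leaving out a library gave 5 to 23 flank calls, with 8 and 23 without M317 AGe sMf replicates A and B and 10, 5 and 5 without M317 AGe rMf replicates A, B and C. No flank site was called for M318 AGe sMf against M318 AGe rMf (9 at an unadjusted p under 0.05 by limma, and 0.0438% called over the table). None was called for M317 Wt against Col Wt (29 at an unadjusted p under 0.05, and 0.701% called over the table) or for M318 Wt against Col Wt (23, and 0.658%) by limma with Benjamini-Hochberg adjustment. These counts of 0 also moved: M318 AGe sMf against rMf had 2 calls without M318 AGe sMf replicate A or M318 AGe rMf replicates A or B. M317 Wt against Col Wt had 7, 2 and 1 without M317 Wt replicates A, B and C and 16 and 9 without Col Wt replicates A and C. M318 Wt against Col Wt had 1, 3 and 1 without M318 Wt replicates A, B and C and 17 and 8 without Col Wt replicates A and C.

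The 3 higher calls of M317 AGe sMf all lay in the plus-strand stretch of its replicate A. CHG 10390390 and CHG 10390393 were each at 17% and 6% in M317 AGe sMf replicates A and B, and at 0 in the 3 M317 AGe rMf and the 3 M317 Wt libraries. CHH 10390468 was at 12% and 8% in M317 AGe sMf, against 0 in the libraries of both other groups. CHG 10390390 and CHH 10390468 passed the filter only through the 2 M317 AGe sMf libraries, so a difference from the other groups was fixed in advance and no p is given for them. For CHG 10390393 the difference was 3.67 on the log2 odds scale from M317 Wt (limma adjusted p = 0.000318) and from M317 AGe rMf (limma adjusted p = 0.00183). Over all 51 libraries CHG 10390390, CHG 10390393 and CHH 10390468 were above 0 in 4, 5 and 8. CHG 10390393 stayed called in all 5 repeats of either comparison, with adjusted p up to 0.0331.

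The M317 comparisons share the M317 Wt libraries, and their lower calls sit at sites where 2 of those 3 libraries were above 0. For example, CHH 10374578 was at 0 in all M317 AGe sMf and rMf libraries, against 12%, 0 and 14% in M317 Wt replicates A, B and C. With the same zeros in both AGe groups, CHH 10391219 was at 0, 17% and 8% and CHH 10376358 at 0, 7% and 11% in M317 Wt. CHH 10376956 (7%, 0 and 7% in M317 Wt) and CHH 10375357 (0, 4% and 6%) were also called in both comparisons. In M317 AGe rMf, whose libraries were all at 0, CHH 10388731 (0, 20% and 17% in M317 Wt) and CHH 10390187 (0, 8% and 7%) were called too. The groups overlap at each of these sites. In the repeats that left out a library, CHH 10374578 stayed called in 1 of 5 for M317 AGe sMf and 1 of 6 for M317 AGe rMf, and CHH 10388731 and CHH 10390187 in 1 of 6 each. CHH 10391219, CHH 10376358, CHH 10376956 and CHH 10375357 stayed called in 1 of the 3 repeats in which they were tested for M317 AGe sMf and in all 4 for M317 AGe rMf, and they had passed the filter only through M317 Wt. Among the higher calls of M317 AGe rMf, CHH 10374706 was at 0, 20% and 9%, CHH 10374939 at 0, 11% and 11%, CHH 10374928 at 0, 10% and 12%, CHH 10375463 at 0, 6% and 14%, and CHH 10376742 at 12%, 0 and 5%, with all M317 Wt libraries at 0. Each of these higher calls had passed the filter only through M317 AGe rMf, so a difference there was fixed in advance.

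In M318 the higher calls of AGe rMf were CHH 10375447 (8%, 0 and 10%), CHH 10376821 (0, 6% and 7%), CHH 10389721 (0, 5% and 5%) and CHG 10376704 (3%, 0 and 6%), with all M318 Wt libraries at 0. Its lower calls, with all M318 AGe rMf libraries at 0, included CHG 10389787 at 9%, 12% and 6% in M318 Wt (difference -3.41, limma adjusted p = 0.00852), which is the one called site where all 3 control libraries were above 0. It stayed called in all 6 repeats that left out a library. CHG 10389745 (17%, 11% and 0 in M318 Wt), CHH 10389757 (17%, 0 and 7%) and CHG 10390222 (0, 10% and 4%) were called lower in both M318 AGe sMf and M318 AGe rMf, which share these controls, and CHG 10376016 (6%, 0 and 4%) in M318 AGe rMf. CHG 10389745, CHH 10389757 and CHG 10389787 lie inside the M318 Wt replicate A stretch. CHH 10389302, at 0, 8% and 7%, was the one site called higher in M318 AGe sMf. In repeats without a library, CHH 10389757 stayed called in 1 of 6 for M318 AGe rMf and 2 of 6 for M318 AGe sMf, and CHG 10376016 and CHH 10389721 in 1 of 6 for M318 AGe rMf. CHG 10389745 and CHG 10390222 stayed called in 4 of the 4 repeats that tested them for M318 AGe rMf and 2 of 4 for M318 AGe sMf, and CHH 10389302 in 1 of 4. CHG 10389745 and CHG 10390222 had passed the filter only through M318 Wt, and CHH 10389302 only through M318 AGe sMf. CHH 10375447, CHH 10376821 and CHG 10376704 had passed it only through M318 AGe rMf. A difference at these sites was fixed in advance, so staying called is no sign of stability.

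The last 2 calls were in Col. CHH 10389127 was at 12% and 17% in Col AGp Sterile and at 0 in both Col Wt libraries (difference 4.16, limma adjusted p = 3.28e-05), and it stayed called in all 4 repeats that left out a library, with 3 of 51 libraries above 0 in all. CHH 10376895 was at 9% and 8% in Col AGe rMf and at 5% and 0 in Col Wt (difference 2.04, limma adjusted p = 0.0431). It stayed called in 1 of 4 such repeats, with adjusted p up to 0.678.

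Set against the segments upstream of AGp, between the targets and just downstream of AGe, the flanks held the lowest mean level over 50 libraries. Col AGp//AGe sMf, which had served to mark the targets, was left out. The stretch between the upstream flank and the segment upstream of AGp was not compared. Its CHG and CHH level lay between 0.0833% and 0.907% in single libraries, and no mean is given for it. The flanks averaged 0.475%, the segment upstream of AGp 0.592%, that between the targets 1.03% and that just downstream of AGe 0.825%. The flanks were lower than the segment upstream of AGp in 22 of 50 libraries, than the one between the targets in 32 and than the one just downstream of AGe in 35. In the 34 libraries with a construct the flanks averaged 0.462%, against 1.30% between the targets (lower in 25 of 34) and 1.02% just downstream of AGe (lower in 30 of 34). In the 16 libraries without a construct they averaged 0.504%, against 0.447% (lower in 7 of 16) and 0.422% (lower in 5 of 16). The order of the segments thus differed with the construct, and no test is given because the flanks had been marked out by their low level. Within the segment upstream of AGp, 219 sites from 10379482 to the end of the segment were at 0 in each of 11 libraries, those of M317 and M318 in column block 2, (0 of 2409 values above 0) and averaged 1.08% in the others, so that segment's mean includes values that may be uncovered.

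**Figure D5:**
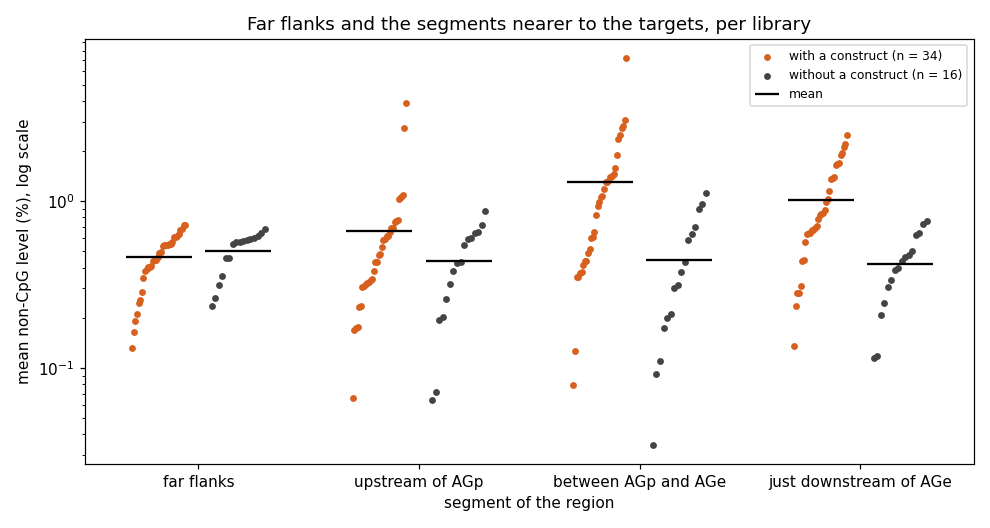
Mean CHG and CHH level (percent, log scale) per library in the far flanks and in 3 segments nearer to the targets, for 34 libraries with a construct (left) and 16 without (right), with lines for the means. With a construct the flanks lie at 0.462% and the segment between the targets at 1.30%; without one they lie at 0.504% and 0.447%.

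Libraries with a high floor upstream tended to have a high floor downstream over all 51 libraries. For CHH sites, Pearson's r between the flanks was 0.475 over 51 libraries (permutation p = 0.00036, adjusted p = 0.00252 over 7 relations) and Spearman's rho was 0.622 (permutation p = 1e-05, the smallest that 100000 resamples can give, adjusted p = 7e-05). Without the 2 libraries farthest from the median of the upstream level r was 0.435. Within column blocks r was -0.174 (n = 11), 0.120 (n = 17), -0.129 (n = 11) and 0.615 (n = 8) in column blocks 1, 2, 3 and 5, with permutation p of 0.585, 0.600, 0.709 and 0.116, and in column block 5 it was 0.263 without the 2 farthest libraries. Column block 4 has 4 libraries, too few for a value. Spearman's rho was -0.0982, 0.331, -0.100 and 0.619 in the same blocks. No value within a column block passed 0.05, the sign was negative in column blocks 1 and 3 and positive in 2 and 5, and with 8 to 17 libraries a p above 0.05 does not show that a relation is absent.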

How the data were processed

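Bisulfite libraries of pooled young flowers were made and sequenced by a company, per the labels' protocols, and the submitters' processing notes name FastQC 0.11.9, Bismark, HISAT2 and TAIR10 without roles. The deposited values are scores: methylation in whole percent, signed by strand, without coverage, so no interval or detection limit was computed. The coverage minimum and the conversion rate were not given in the sources used here. Signs were removed, and the code rc and empty cells were treated as missing, although their meaning is not stated. No 2 libraries held identical values.

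Rows were brought into register by a hidden Markov model of the signs (up to 40 rows, sign error 0.003, change rate 0.004, posterior of at least 0.9), with column block 1 as the standard. As a check the magnitudes, not used for the alignment, were compared between libraries of column blocks 1 and 2 over 852 downstream cytosines, CpG included. Pearson's r moved from 0.140 to 0.834 (Col AGe rMf replicates) and from 0.112 to 0.737 (Col Wt replicates A and C). It moved from 0.0287 to 0.878 (M317 Wt replicates A and B) and from 0.0783 to 0.801 (M318 Wt replicates A and C). CpG levels are far higher downstream, so r does not measure how CHG and CHH values replicate. Column blocks 3 to 5 were not checked in this way. On simulated displacements 99.93% to 99.98% of kept rows were right. Levels are means over sites with equal weight.

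Groups were compared with two-sided exact permutation tests over libraries. Single sites were tested with limma 3.58.1 (R 4.3.3, trended empirical Bayes, 9 groups, 23 libraries) with Benjamini-Hochberg adjustment and a threshold of 0.05. On simulated data for M317 AGe rMf against M317 Wt (2281 sites), shifts of 2, 4, 6 and 8 were recovered in 40%, 88%, 98% and 100% of 50 sites each, with 8 false calls among 2081. Figures and tables used Python 3.11.15. The test chosen for the flanks against the other segments is not reported, since the flanks were marked out by their low level. At single sites, correlations of deviations between libraries of the same replicate letter lay between -0.151 and 0.176. These correlations do not show whether mean levels are paired. Replicate letter overlaps with column block, and the permutation tests used neither.

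The members, lists and rules were chosen with earlier results of these data known. Named are the 8 sites with the highest means in each context, sites called by limma (at most 5 by size per comparison and direction), the 3 highest windows per flank and the 5 highest sites in libraries with an allele and no construct. Alternatives were the rows as deposited, a posterior of 0.99, flanks trimmed by 500 bp, other filters and offsets, column block or replicate terms, compared groups alone and each library left out.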

Additional observations from a re-analysis of the deposited data

Results flagged for a closer look

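At 3 sites a limma interaction term with Benjamini-Hochberg adjustment called the difference between AGe sMf and Wt in M317 against that in M318. The sMf difference in M317 minus that in M318 was 3.59 on the log2 odds scale at CHH 10390468, 3.67 at CHG 10390390 and 3.67 at CHG 10390393. CHH 10390468 and CHG 10390390 passed the filter only through the 2 M317 AGe sMf libraries, so their calls are no test and no p is given. For CHG 10390393 the adjusted p was 0.0398. All 3 lie in the stretch where M317 AGe sMf replicate A was above 0 almost only on the plus strand. When each of the 11 libraries was left out in turn, CHG 10390393 stayed called in 3 of 11 repeats, with adjusted p up to 0.145. No flank site was called by this interaction with the compared groups alone (0 of 164 tested, 4 at an unadjusted p under 0.05) or with the filter of 4 libraries above 0 (0 of 67, 1 at an unadjusted p under 0.05).

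For the mean level of the flanks, both M317 AGe sMf libraries lay above the mean of M317 Wt and all 3 M318 AGe sMf libraries below the mean of M318 Wt. The sMf differences are 0.288 percentage points apart. This difference was not tested, and the M317 difference was 0.0788 points without M317 AGe sMf replicate A and -0.0661 points without the runs on one strand.

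CpG sites of the upstream flank, which enter no comparison above, averaged 1.84% in hdp1-1 ARE//AGe sMf and 1.67% in hdp1-1 Wt, above the 0.25% to 0.768% of the 5 Col Wt libraries. In hdp1-1 ARE//AGe rMf they averaged 0.304%. The values come from CpG 10376873 and CpG 10376874, at 76% and 90% in hdp1-1 ARE//AGe sMf and 43% and 46% in hdp1-1 Wt, and from CpG 10376962, at 31% and 50%. CpG 10376962 was also at 81% in Col Wt replicate A of set A, and the pair was at 36% and 29% in M317 AGe rMf replicate B. No group had 4 or more libraries, so no library was tested as standing apart within its group.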

How the results depend on the processing

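The level differences are too small and the groups too few for any to pass 0.05, so only directions are compared. With rows as deposited, which mixes contexts by construction, M317 AGe sMf and rMf against M317 Wt became -0.259 and -0.113 points, M317 AGe sMf against rMf -0.146 and M317 Wt against Col Wt 0.216, and flanks minus segments became 0.430 (upstream of AGp), 0.1097 (between the targets) and 0.309 (just downstream of AGe). In libraries without a construct alone these 3 were 0.0679, 0.0576 and 0.0829. Without runs on one strand, added after the data were seen, M317 AGe sMf differed by -0.0661 from Wt and -0.0805 from rMf. Within column block 1, M317 AGe rMf against Wt was -0.0264, and within column block 2 M317 AGe sMf against rMf was -0.0685, M318 AGe sMf against rMf 0.0119 and M318 Wt against Col Wt -0.0220. M318 AGe sMf against rMf was 0.00654 in trimmed flanks, and M318 Wt against Col Wt was -0.765 as the share of sites above 0. The replicate block reversed one level difference, M318 Wt against Col Wt (-0.0434), and by limma it took the sMf interaction (M317 minus M318) to 0 flank calls (18 at an unadjusted p under 0.05), against 3 without it. For M317 AGe sMf against Wt it gave 5 higher and 3 lower calls, against 3 and 7, and for M318 AGe sMf against Wt 2 higher, against 1; the other counts by direction moved by 1.5 times or less. Leaving out sites above 0 in most libraries removed none. For changes other than those of the rows as deposited, the cause was not tested.

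Counts of called sites by limma depended on the filter and the fit. Without a filter Col AGe rMf against Col Wt had 0 and M318 AGe sMf against Wt 0. Requiring 4 libraries above 0 left 0 for M317 AGe sMf and 2 for M317 AGe rMf against Wt, 2 for M318 AGe sMf, 4 for M318 AGe rMf, 0 for M317 AGe sMf against rMf and 0 for Col AGp Sterile. With the compared groups alone these 6 were 3, 0, 0, 1, 0 and 2. Directions moved as well. Col AGe rMf against Col Wt had 0 higher and 1 lower in both of these settings, against 1 higher and 0 lower in the main fit. M317 AGe sMf against Wt had 3 higher and 0 lower with the compared groups alone, against 3 and 7. Rows as deposited gave 4 for Col AGe rMf and 2 each for M317 Wt, M318 Wt and Col AGp Sterile against Col Wt. Col AGe rMf had 2 at a posterior of 0.99 and 0 with a column block term.

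Leaving out each library in turn gave level differences of -0.264 to 0.0651 (Col AGe rMf), 0.0525 to 0.211 (M317 AGe sMf), -0.0560 to 0.147 (M317 AGe rMf), -0.248 to -0.0622 (M318 AGe sMf) and -0.236 to -0.0499 (M318 AGe rMf) against Wt. They were -0.0217 to 0.182 for M317 and -0.0833 to 0.0829 for M318 AGe sMf against rMf, and -0.210 to 0.119 (M317 Wt), -0.107 to 0.222 (M318 Wt) and -0.290 to 0.0393 (Col AGp Sterile) against Col Wt. The signs turned without Col Wt replicate C (Col AGe rMf, M317 Wt, Col AGp Sterile), Col Wt replicate A or M318 Wt replicate B (M318 Wt), M317 AGe rMf replicate C or M317 Wt replicate A (M317 AGe rMf), M317 Wt replicate A (M317 Wt), Col AGp Sterile replicate 1, M317 AGe rMf replicate A (sMf against rMf), and M318 AGe sMf replicate A or M318 AGe rMf replicates B or C (sMf against rMf). Counts of called flank sites ranged, in the same order of comparisons, over 17 to 41, 4 to 34, 8 to 17, 1 to 6, 4 to 7, 5 to 23, 0 to 2, 1 to 16, 1 to 17 and 4 to 38. A group left with 1 library was assumed to vary like the others, and such calls rest on that library. For the 2 flanks, r was -0.174, 0.120, -0.129 and 0.615 within column blocks 1, 2, 3 and 5. The unknown depth limits all of these values.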
